A study of Rattus norvegicus with 16 samples.

Results

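The 10 circadian clock genes Arntl, Clock, Per1, Per2, Per3, Cry1, Cry2, Nr1d1, Nr1d2 and Dbp were followed across 16 RNA sequencing libraries of rat supraspinatus muscle. They were chosen by name, with no threshold on their values, and are 10 of the 17147 genes in the table of counts. All 10 passed the filter for low counts and are among the 11658 genes tested. The rats were of the Sprague Dawley strain. The 4 groups of 4 libraries were taken at day 0, from unoperated muscle, and at 10, 30 and 60 days after injury. The injury was a full-thickness tear of the supraspinatus, a muscle of the rotator cuff, on both sides together with suprascapular neurectomy, which cuts the nerve that supplies this muscle. The tear and the neurectomy were made in every injured animal and cannot be told apart, and a sham-operated group was not analysed here. The labels give neither the time of day of collection nor the age or sex of the rats, nor which libraries came from the same rat. P-values therefore measure only the spread between these libraries.

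The circadian clock is a loop of transcription and translation that keeps daily time in nearly every cell. In its positive arm BMAL1 (the product of Arntl) and CLOCK bind E-box sequences and switch on the Per, Cry, Nr1d1, Nr1d2 and Dbp genes. In the negative arm PER and CRY proteins return to the nucleus and block BMAL1 and CLOCK, while REV-ERB alpha and beta (the products of Nr1d1 and Nr1d2) repress Arntl through ROR elements, so that Arntl and its targets peak at opposite times of day. Skeletal muscle has its own clock, which sets the daily rhythm of glucose use and of myogenic genes.

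The promoters are shown because they can hold some of the DNA sequences through which the arms are known to act on each other. The stretch of 250 bases before the start site was found in the RefSeq tables of the rat assembly GRCr8 for 9 of the 10 genes. For Cry1 no promoter was found there. Only the first listed promoter of each gene was searched, and a gene shown could have up to 2. Sites further upstream, within the gene or at another start site were not searched, so that no match does not mean no site. Of the promoters of 27457 genes of the same length, 5.795% held the E-box CACGTG on either strand, and 0 of the 9 clock genes did. The variant E-box CACGTT, whose reverse strand reads AACGTG, was in 3 of the 9 (Per2, Cry2 and Nr1d1) and in 4.141% of all. The D-box TTATGTAA, the site bound by DBP, was in Per2 alone among the 9 and in 0.816% of all. The ROR element, AGGTCA directly preceded by AANT, was in Arntl alone among the 9 and in 0.204% of all, and its core AGGTCA was in Arntl and Nr1d2 and in 13.661% of all. The CRE site TGACGTCA (1.697% of all) and the D-box TTATGCAA (0.736% of all) were in 0 of the 9. In the sequences below capitals mark the matches, counted from the start site: the ROR element of Arntl (chr1:176766078-176766327, plus strand) at -19, the D-box at -192 and the variant E-box at -62 of Per2 (chr9:99496994-99497243, minus strand), and the reverse variant E-box of Nr1d1 (chr10:84231813-84232062, minus strand) at -174. The last is that of Ciart (chr2:186112247-186112496, minus strand), a repressor of BMAL1 and CLOCK that is RGD1566380 in the table of counts, with 3 E-boxes at -93, -35 and -21. It is shown because its transcripts, described below, were lower at 10 and 30 days. Other repressors and outputs described below did not all pair an E-box with a fall. Tef held an E-box at -198 and was not called at 10 days, while Nfil3 and Usp2 held none and were lower at both times. Bhlhe40 held an E-box at -220, and so did Bhlhe41, which was not counted, at -48. For Nampt, Wee1 and Hlf no promoter was found to search. A link of E-boxes with the changes was not tested. A match of letters is a description and does not show that a factor was bound.
Arntl: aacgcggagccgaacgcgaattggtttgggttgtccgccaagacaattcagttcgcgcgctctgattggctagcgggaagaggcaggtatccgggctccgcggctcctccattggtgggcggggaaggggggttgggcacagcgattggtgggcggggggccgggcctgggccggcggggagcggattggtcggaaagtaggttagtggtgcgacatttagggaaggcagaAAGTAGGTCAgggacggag
Per2: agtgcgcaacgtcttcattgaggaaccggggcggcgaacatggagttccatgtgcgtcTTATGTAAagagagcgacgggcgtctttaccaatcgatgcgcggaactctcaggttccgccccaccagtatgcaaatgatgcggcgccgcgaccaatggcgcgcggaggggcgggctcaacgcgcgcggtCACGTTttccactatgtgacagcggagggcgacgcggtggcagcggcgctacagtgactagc
Nr1d1: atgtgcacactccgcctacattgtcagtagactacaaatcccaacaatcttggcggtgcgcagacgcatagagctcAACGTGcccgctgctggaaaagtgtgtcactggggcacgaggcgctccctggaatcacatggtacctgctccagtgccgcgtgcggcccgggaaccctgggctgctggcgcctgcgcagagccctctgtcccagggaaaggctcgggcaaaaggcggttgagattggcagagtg
Ciart: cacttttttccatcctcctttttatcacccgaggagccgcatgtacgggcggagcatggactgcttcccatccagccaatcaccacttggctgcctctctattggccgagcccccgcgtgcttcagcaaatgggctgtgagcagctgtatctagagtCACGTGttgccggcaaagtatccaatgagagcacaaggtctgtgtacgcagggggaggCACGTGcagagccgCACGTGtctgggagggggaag

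Levels are given as CPM, the fragments of a gene per 1 M fragments (M, mega) of its library, after scaling the libraries by the trimmed mean of M values (TMM). Library totals ran from 17.2 to 39.9 M fragments, and the 4 libraries at day 60 (17.2 to 22.4 M) were the 4 smallest. The choice of scaling bears on every direction given here. TMM factors were 0.75 to 0.77 at day 0 and 1.18 to 1.24 at day 10, and scaling by library totals instead moved the median log2 fold change over all genes by 0.66 at day 10, 0.49 at day 30 and 0.41 at day 60 against 0 days. Fold changes with library totals are therefore given where they turn a direction, and ratios of a pair of genes within a library, which are free of this choice, are given after the levels. Each value with library totals against 0 days stands beside medians over all genes of 0.72, 0.54 and 0.45 at 10, 30 and 60 days. With that scaling 80.2%, 75.1% and 69.9% of all genes were called. A gene was called changed at a Benjamini-Hochberg adjusted p under 0.05 in edgeR's quasi-likelihood test, adjusted over all genes tested. In whole muscle, fewer cells of a type and less RNA per cell cannot be told apart.

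Of the positive arm, neither gene was called changed at 10 or 30 days with TMM scaling, while library totals called Arntl higher at day 10 and Clock higher at both times. Arntl, which encodes BMAL1, measured 23.5, 18.5, 12.2 and 9.10 CPM in the 4 libraries at day 0 and 14.4, 20.2, 19.0 and 18.8 CPM at day 10. Its levels were 14.6, 15.0, 12.3 and 10.7 CPM at day 30 and 22.3, 10.2, 8.65 and 6.84 CPM at day 60. The groups overlapped at every time, and the highest and lowest libraries at day 0 were further apart than any of the group means. The log2 fold changes of Arntl against 0 days were 0.20 ± 0.32 (SE; adjusted p 0.607) at day 10, where library totals gave 0.85 (0.0223), -0.26 ± 0.32 (0.488) at day 30, where library totals gave 0.23, and -0.39 ± 0.33 (0.315) at day 60. At 60 days replicate 1 stood above the other libraries of its group, and without it the value was -0.89 (adjusted p 0.0106) and Arntl was called lower. Clock, the partner of BMAL1, measured 68.7, 63.4, 60.4 and 52.2 CPM at day 0 and 61.0, 69.6, 55.5 and 65.1 CPM at day 10. It measured 62.1, 55.8, 46.9 and 54.0 CPM at day 30 and 57.0, 51.0, 45.2 and 42.8 CPM at day 60. Clock was lower at 60 than at day 0 by a log2 fold change of -0.32 ± 0.11 (adjusted p 0.0196), although the groups overlapped, and library totals turned it to 0.08. That call was lost with upper-quartile factors (-0.18, adjusted p 0.134) and without replicate 1 (-0.24), 2 (-0.28) of the 0-day group or replicate 3 (-0.28) or 4 (-0.24) of the 60-day group. At 10 and 30 days its values were 0.04 ± 0.11 (adjusted p 0.773) and -0.16 ± 0.11 (0.207), and library totals gave 0.69 (2.96e-05) and 0.34 (0.0131). With library totals the medians over all genes at these times, 0.72 and 0.54, were above those of Clock.

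The 3 Per genes, whose proteins form the repressor complex with CRY, moved in different directions. Per1 was lower at 10 and 30 days, Per3 was higher at 30 and 60 days, and Per2 passed the test at no time against 0 days. Per1 measured 122, 166, 104 and 101 CPM at day 0, 57.1, 50.5, 73.6 and 23.0 CPM at day 10, 29.8, 43.9, 39.2 and 29.6 CPM at day 30 and 101, 148, 66.9 and 82.1 CPM at day 60. All libraries at 10 and 30 days lay below all libraries at day 0, and those at day 60 overlapped with them. Its log2 fold change was -1.27 ± 0.30 (adjusted p 0.00169) at day 10, -1.79 ± 0.31 (0.000114) at day 30 and -0.31 ± 0.30 (0.383) at day 60. With library totals these were -0.61 (adjusted p 0.0742), -1.30 (0.00130) and 0.10 (0.784), so that the call at day 10 was lost. Per1 is also known as a gene that glucocorticoid hormones and immediate early signals induce, and lists of both kinds are given below.

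Per3 measured 36.8, 27.1, 35.1 and 44.4 CPM at day 0, 39.3, 41.6, 39.7 and 42.5 CPM at day 10, 61.7, 47.6, 55.5 and 54.2 CPM at day 30 and 40.8, 51.8, 52.4 and 64.7 CPM at day 60. The 30-day libraries all lay above the 0-day libraries, and the 60-day group overlapped with them through its lowest library. The log2 fold change of Per3 was 0.19 ± 0.14 (adjusted p 0.248) at day 10, where library totals gave 0.845 (0.000110) and called it higher, 0.61 ± 0.14 (0.00104) at day 30 and 0.55 ± 0.14 (0.00289) at day 60. It was the only clock gene called higher than at day 0 at any time with TMM scaling. Per2, whose promoter carries the D-box shown above, ranged from 50.4 to 88.5 CPM at day 0, 47.8 to 63.7 CPM at day 10, 55.0 to 68.9 CPM at day 30 and 65.8 to 87.2 CPM at day 60. Its range at day 0 took in nearly all later libraries, and its log2 fold changes were -0.19 ± 0.16 (adjusted p 0.296), -0.04 ± 0.16 (0.842) and 0.25 ± 0.16 (0.177). With library totals they were 0.47, 0.46 and 0.67, each called higher. The value at day 60 was also called higher without replicate 4 at day 0 (0.46, adjusted p 0.00779) and with upper-quartile factors (0.39, 0.0436).

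Both Cry genes, which encode the cryptochrome repressors, were lower at day 30 with TMM scaling. Cry1 measured 17.9, 18.7, 20.3 and 19.7 CPM at day 0, 15.2, 17.7, 14.9 and 16.7 CPM at day 10, 12.9, 14.4, 13.0 and 17.2 CPM at day 30 and 14.9, 14.0, 15.4 and 12.8 CPM at day 60. With TMM scaling every injured library was below every 0-day library. The log2 fold change of Cry1 was -0.25 ± 0.099 (adjusted p 0.0381) at day 10, -0.41 ± 0.10 (0.00171) at day 30 and -0.43 ± 0.10 (0.00186) at day 60, and library totals gave 0.41 (called higher), 0.08 and -0.02. The call at day 10 was also lost without replicate 2 (-0.26), 3 (-0.22) or 4 (-0.23) at day 0 or replicate 1 (-0.22) or 3 (-0.21) at day 10, with upper-quartile factors (-0.20, adjusted p 0.0790) and with the replicate suffix as a block (0.0503). Cry2 ranged from 65.5 to 98.6 CPM at day 0, 71.9 to 84.0 CPM at day 10, 49.2 to 65.6 CPM at day 30 and 64.5 to 85.8 CPM at day 60. The 30-day group was lowest, its highest library just overlapping with the lowest at day 0. Its log2 fold change was -0.43 ± 0.12 (adjusted p 0.00622) at day 30, where library totals gave 0.06, and -0.04 ± 0.12 (0.804) and -0.06 ± 0.12 (0.677) at 10 and 60 days, where library totals called it higher (0.62 and 0.34).

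The REV-ERB genes had the smallest p-values of the 10 at day 10. Nr1d1 fell at day 10 and was closer to the 0-day level at each later time. It measured 212, 265, 258 and 230.0 CPM at day 0 and 91.3, 80.1, 84.5 and 68.6 CPM at day 10. At 30 days it measured 99.7, 155, 157 and 118 CPM, and at day 60 154, 213, 215 and 169.6 CPM. No 10-day or 30-day library reached the 0-day range, while the upper pair of 60-day libraries was just inside it. The log2 fold change of Nr1d1 was -1.57 ± 0.15 (adjusted p 1.54e-07) at day 10, -0.87 ± 0.15 (8.52e-05) at day 30 and -0.36 ± 0.15 (0.0422) at day 60. With library totals it was -0.91 (adjusted p 7.75e-06), -0.38 (0.0150) and 0.05 (0.761). The call at day 60 was also lost with upper-quartile factors (-0.22, adjusted p 0.214), a filter at a mean of 1 CPM (-0.32, 0.0769) and the letter ending each title as a covariate (-0.35, 0.0588), and without replicate 2 (-0.30), 3 (-0.31) or 4 (-0.37) at day 0 or replicate 1 (-0.28) or 4 (-0.29) at day 60.

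Nr1d2 had the same order of group means over a smaller range. It measured 263, 240.2, 292 and 269.6 CPM at day 0, 162, 147, 156 and 164 CPM at day 10, 178, 186, 193 and 196 CPM at day 30 and 208, 251, 233 and 259.8 CPM at day 60. The 10-day and 30-day libraries lay below the 0-day range and did not overlap with each other. Its log2 fold change was -0.76 ± 0.079 (adjusted p 3.84e-07) at day 10, -0.50 ± 0.079 (4.07e-05) at day 30 and -0.16 ± 0.079 (0.0880) at day 60. With library totals these were -0.10 (adjusted p 0.304), -0.007 (0.949) and 0.25 (0.0193, called higher), so that the fall of Nr1d2 depended on the scaling while that of Nr1d1 at 10 and 30 days passed the test under both.

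Dbp, a D-box activator that is among the standard readouts of BMAL1 and CLOCK activity, was lower at day 10 with TMM scaling. It measured 141, 167, 289 and 352 CPM at day 0 and 165, 153, 151 and 129 CPM at day 10. It measured 162, 165, 223 and 216 CPM at day 30 and 156, 279, 301 and 295 CPM at day 60. The 10-day values lay together near the bottom of the wide 0-day range and overlapped with it, and replicate 1 at day 60 was far below the others of its group. The log2 fold change of Dbp was -0.67 ± 0.26 (adjusted p 0.0340) at day 10, -0.31 ± 0.26 (0.301) at day 30, where library totals gave 0.18, and 0.12 ± 0.26 (0.708) at day 60. The call at day 10 was not kept with library totals (-0.005), limma-voom (-0.57, adjusted p 0.0715), no filter for low counts (0.0511), the title letter as a covariate (0.0543) or the compared groups fitted alone (0.0666), nor without replicate 3 (-0.55) or 4 (-0.41) at day 0 or replicate 2 (-0.68), 3 (-0.67) or 4 (-0.60) at day 10.

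**Figure D1:**
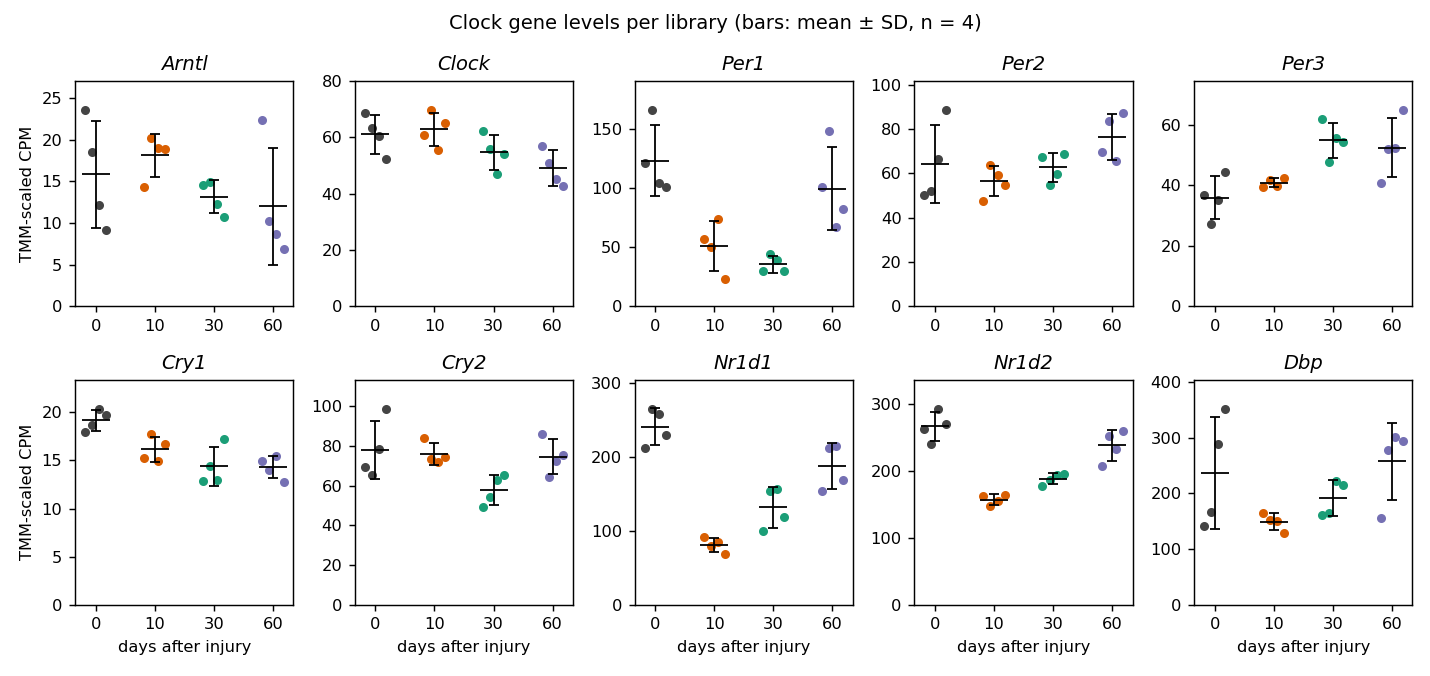
TMM-scaled CPM of the 10 clock genes (vertical axes, each from 0) against days after injury, with 1 point per library and bars for the mean ± SD (n = 4). Nr1d1 and Nr1d2 sit lowest at day 10, Per1 at 10 and 30 days, and the 4 points of Arntl and of Dbp spread widely at 0 and 60 days.

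**Figure D2:**
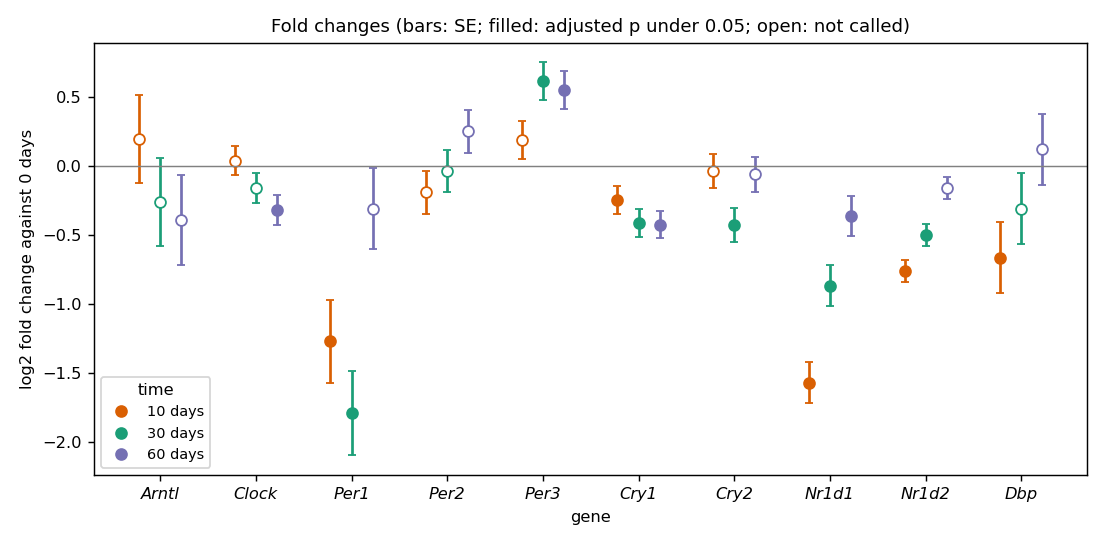
Log2 fold change against 0 days of each clock gene at 10, 30 and 60 days, with TMM scaling; bars are the SE, filled points have an adjusted p under 0.05 and open points do not. Nr1d1 at day 10 (-1.57) and Per1 at day 30 (-1.79) lie furthest below 0, and Per3 has the 2 filled points above it.

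The number of clock genes called is read against all genes, of which most changed in these libraries. At 10 days 5 of the 10 were called (0 higher, 5 lower), beside 62.7% of all genes tested (33.3% higher, 29.4% lower). At 30 days 6 were called (1 higher, 5 lower), beside 64.6% of all (33.7% higher, 30.9% lower), and at day 60 4 were called (1 higher, 3 lower), beside 59% of all (29.9% higher, 29.1% lower). The count called was thus no larger than the share of all genes would give at any of these times. With library totals the counts were 7 (6 higher, 1 lower), 5 (3 higher, 2 lower) and 4 (4 higher, 0 lower), beside 80.2%, 75.1% and 69.9% of all genes with the same scaling, and with upper-quartile factors the 60-day count was 3 (2 higher, 1 lower). The median log2 fold change of the 10 was -0.22 at day 10, -0.36 at day 30 and -0.24 at day 60, beside 0.06, 0.05 and 0.04 over all genes. Library totals gave medians of 0.44, 0.13 and 0.17, beside 0.72, 0.54 and 0.45 over all genes. The median of the 10 was thus below that of all genes. A change of scaling moves all genes of a comparison by nearly the same amount. The same gap with library totals was therefore given in advance and is not a second result. The groups did not overlap for 4 clock genes at day 10 (59% of all genes), 5 at day 30 (60.2% of all) and 1 at day 60 (50% of all). A joint test of the 4 groups called 8 of the 10, beside 84.7% of all genes, with adjusted p-values of 0.308 for Arntl and 0.0823 for Per2, the other two. The joint test called Arntl with library totals (0.0472) and without replicate 1 at day 60 (0.0102). It called Per2 with DESeq2 (0.0446), upper-quartile factors (0.0296) and library totals (0.0105), and without replicate 1 (0.0473) or 4 (0.00739) at day 0. It lost Clock with upper-quartile factors (0.106) and without replicate 3 (0.0666) or 4 (0.0890) at day 60, and Cry2 without replicate 1 (0.0720) or 2 (0.0588) at day 30. It lost Dbp (0.0439) with library totals (0.167), limma-voom (0.0752) and no filter (0.0747), and without replicate 3 at day 0, any library at day 10, replicate 1 or 2 at day 30 or replicate 2, 3 or 4 at day 60 (0.0517 to 0.102).

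Comparisons between injured groups did not use the 0-day libraries as a reference. From 10 to 60 days 7 of the 10 clock genes were called (6 higher, 1 lower), beside 61.1% of all genes (29.1% higher, 31.9% lower). Nr1d1 was higher at 60 than at day 10 by 1.21 ± 0.15 on the log2 scale (adjusted p 3.65e-06) and Nr1d2 by 0.60 ± 0.079 (7.14e-06), and in neither did the groups overlap. Per1 was higher by 0.96 ± 0.30 (adjusted p 0.0114), Dbp by 0.79 ± 0.26 (0.0154), Per2 by 0.44 ± 0.16 (0.0216) and Per3 by 0.36 ± 0.14 (0.0306). Thus 6 genes switched on by BMAL1 and CLOCK were higher with TMM scaling. Cry1 (-0.18 ± 0.10, adjusted p 0.138) and Cry2 (-0.025 ± 0.12, 0.870), which they also switch on, were not called. Clock was the gene that was lower, by a log2 fold change of -0.36 ± 0.11 (0.00946), and Arntl had -0.59 ± 0.32 (0.127), called lower with library totals (-0.855, adjusted p 0.0295), with the suffix block (-0.73, 0.0337) and without replicate 1 at day 60 (-1.08, 0.00266). The count was 4 (3 higher, 1 lower) without replicate 2 at day 60, where Per1, Per2 and Per3 were lost. Per2 was also lost without replicate 1 at day 10 or 4 at day 60, and Per3 without replicate 1, 2 or 3 at day 10 or 3 or 4 at day 60. With library totals the count was 6 (2 higher, 4 lower), beside 63.2% of all genes, with Nr1d1 and Nr1d2 higher and Arntl, Clock, Cry1 and Cry2 lower. The median of the 10 was 0.40, beside -0.007 over all genes, and library totals gave 0.16, beside -0.26 over all genes. The groups did not overlap for 3 of the 10 with TMM scaling (51.2% of all genes).

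With TMM scaling Nr1d1 and Nr1d2 were called higher in both intervals, from 10 to 30 and from 30 to 60 days. From 10 to 30 days 4 clock genes were called (3 higher, 1 lower), beside 47.3% of all genes (23% higher, 24.3% lower). These were Nr1d1 at 0.71 ± 0.15 (adjusted p 0.000915), Per3 at 0.42 ± 0.14 (0.0176), Nr1d2 at 0.26 ± 0.079 (0.0125) and Cry2 at -0.39 ± 0.12 (0.0156). All 4 had no overlap between the groups (43.8% of all genes). Library totals gave 1 higher (Nr1d1) and 3 lower (Clock, Cry1 and Cry2), beside 47.6% of all genes. Without replicate 1 at day 30 2 were called, both higher, with Per3 and Cry2 lost, and Per3 was also lost with the title letter as a covariate (0.36, adjusted p 0.0537). With the compared groups fitted alone Arntl was called lower (-0.47, adjusted p 0.0154) and Dbp higher (0.35, 0.0362). Per1 was called lower without replicate 4 at day 10 (-0.76, 0.0209), and Cry1 without replicate 4 at day 30 (-0.26, 0.0316). From 30 to 60 days 4 were called, all higher, beside 22.6% of all genes (10.3% higher, 12.4% lower). These were Per1 at 1.48 ± 0.30 (adjusted p 0.00308), Nr1d1 at 0.505 ± 0.15 (0.0208), Cry2 at 0.365 ± 0.12 (0.0428) and Nr1d2 at 0.34 ± 0.079 (0.00612). The groups of Per1 and Nr1d2 did not overlap (20.1% of all genes). The call of Nr1d1 was lost without replicate 1 or 4 at day 30 or 2 or 3 at day 60, and that of Cry2 without any 1 of 8 libraries (replicates 2, 3 and 4 at day 10, 1 and 2 at day 30 and 1, 3 and 4 at day 60). The count was 3 (all higher, without Cry2) with library totals, beside 24.5% of all genes, and 2 without replicate 1 at day 30, without replicate 3 at day 60 or with the compared groups fitted alone.

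The arms were set against each other within each library as log2 ratios of CPM. No p-value is given for a ratio. The ratio of Arntl to Nr1d1 was -3.17, -3.84, -4.40 and -4.65 at day 0, -2.66, -1.98, -2.15 and -1.86 at day 10, -2.77, -3.36, -3.66 and -3.46 at day 30 and -2.78, -4.37, -4.62 and -4.62 at day 60. Every 10-day library was above every library at 0, 30 and 60 days, and the other three groups overlapped. Its means were -4.01 ± 0.66 (SD, n = 4), -2.16 ± 0.35, -3.31 ± 0.38 and -4.10 ± 0.89. The ratio of Clock to Nr1d1, chosen after its values were seen, had means of -1.98 ± 0.24, -0.37 ± 0.27, -1.26 ± 0.46 and -1.93 ± 0.35, and again the 10-day libraries stood above all others. Positive arm over Nr1d1 was thus higher at day 10 by 1.85 on the log2 scale with Arntl and by 1.62 with Clock than at day 0. Both ratios share Nr1d1 and are not separate results. With TMM scaling the log2 fold change at day 10 was -1.57 for Nr1d1, 0.20 for Arntl and 0.04 for Clock, so that most of each difference was the fall of Nr1d1. How a ratio divides between its genes depends on the scaling, and library totals gave 0.85 for Arntl and 0.69 for Clock.

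The ratio of Arntl to Dbp, in contrast, overlapped between all groups. It was -2.58, -3.17, -4.56 and -5.26 at day 0, -3.52, -2.92, -2.98 and -2.77 at day 10, -3.47, -3.45, -4.17 and -4.32 at day 30 and -2.80, -4.76, -5.11 and -5.41 at day 60. The 0-day and 60-day libraries alone spanned the whole range of this ratio. Dbp and Nr1d1, both targets of BMAL1 and CLOCK, did not keep a fixed ratio. The log2 ratio of Dbp to Nr1d1, also chosen after its values were seen, had means of -0.12 ± 0.62 (SD, n = 4) at day 0, 0.88 ± 0.046 at day 10, 0.54 ± 0.33 at day 30 and 0.42 ± 0.32 at day 60. All 10-day libraries (0.83 to 0.93) were above those at day 0 (-0.67 to 0.61) and at day 60 (0.02 to 0.80). The ratio of Per3 to Per1, chosen in the same way, had means of -1.77 ± 0.60, -0.21 ± 0.77, 0.63 ± 0.42 and -0.88 ± 0.62. The 30-day libraries (0.12 to 1.05) lay above all those at day 0 (-2.61 to -1.19) and at day 60 (-1.52 to -0.34), and the 10-day libraries (-0.89 to 0.88) above all those at day 0.

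**Figure D3:**
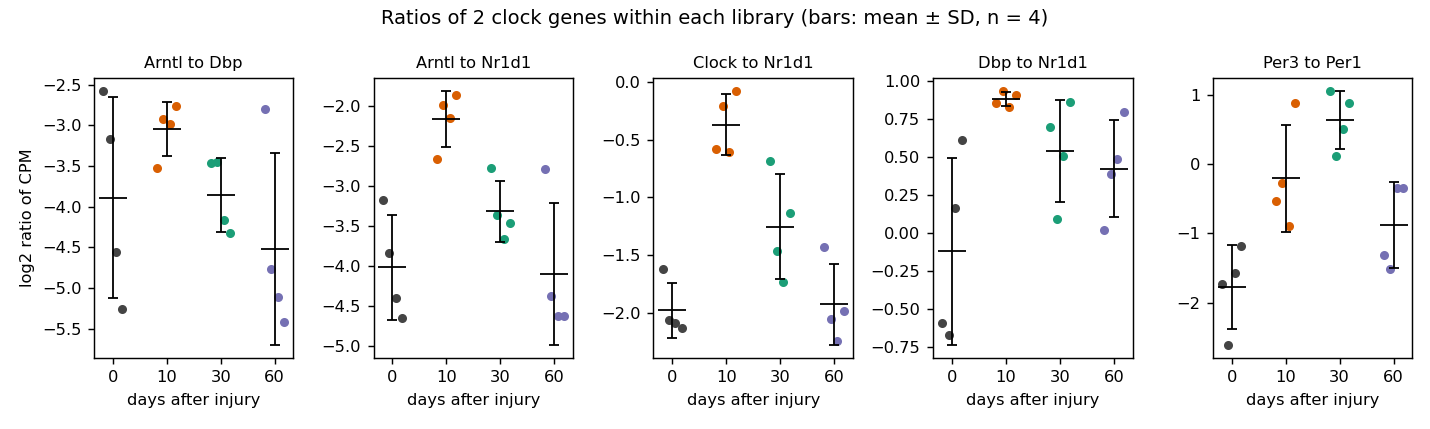
Log2 ratio of a pair of clock genes within each library (vertical axis) against days after injury; points are libraries and bars the mean ± SD (n = 4). Arntl and Clock over Nr1d1 are highest at day 10 (means -2.16 and -0.37), Arntl over Dbp overlaps between all groups, and Per3 over Per1 is highest at day 30 (mean 0.63).

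Several clock genes varied more between libraries of a group than most genes, Arntl and Dbp most of all at day 0. The coefficient of variation (CV, the SD as a percentage of the mean) of Arntl was 40.7% at day 0 and 58.4% at day 60, at the 98.8th and 99.2nd percentile of 8476 genes with a mean of at least 5 CPM, whose median CV was 7.58% and 11.7%. Dbp had a CV of 42.2% at day 0 (percentile 98.9) and 26.6% at day 60 (percentile 88.3). At 10 days both were narrower, with 14.2% for Arntl and 10.2% for Dbp beside a median of 8.61%, and at day 30 they had 15.2% and 17.0% beside 9.59%. Per1 had its widest spread at day 10, with a CV of 41.3% (percentile 98.7). Per2 (27.3%), Per1 (24.2%), Per3 (19.8%) and Cry2 (19.0%) were also wide at day 0, at percentiles 96.1, 94.7, 90.9 and 89.9. Nr1d2 and Cry1, by contrast, had CVs of 8.05% and 5.54% at day 0, close to or below the median.

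Within the 0, 30 and 60-day groups the libraries with more Arntl tended to have less Dbp. In the 0-day group the order of the 4 libraries by Arntl was the exact reverse of their order by Dbp, from replicate 1 (Arntl 23.5, Dbp 141 CPM) to replicate 4 (Arntl 9.10, Dbp 352 CPM). Replicate 1 at day 60 had the highest Arntl (22.3 CPM) and the lowest Dbp (156 CPM) of its group, and at day 30 the pair of libraries with more Arntl (14.6 and 15.0 CPM) had less Dbp (162 and 165 CPM). At day 10 the library with the least Arntl had the most Dbp (14.4 and 165 CPM), but the other three had the same order in both genes (Arntl 20.2, 19.0 and 18.8, Dbp 153, 151 and 129 CPM). As a description over the deviations of the 16 libraries from their group means in log2 CPM, Pearson's r of Arntl with Dbp was -0.924 and Spearman's rho -0.879. Without the 2 libraries furthest from the median of Arntl, r was -0.879. Within a single group there are 4 libraries, too few for a correlation. Both measures come from the same libraries and share their scaling.

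Arntl and Clock deviated together (r 0.769), and Clock and Dbp in opposite directions (r -0.761). Of the 16 pairs of a positive arm gene with one of the other 8, r was negative in 13 and ranged from -0.924 to 0.245. Arntl had r of -0.729 with Nr1d2, -0.668 with Per3, -0.554 with Per2 and -0.294 with Nr1d1. Spearman's rho of these pairs was -0.665, -0.385, -0.485 and -0.224. Without the 2 libraries furthest from the median of Arntl, r was -0.66, -0.404, -0.436 and -0.175, so that the value for Per3 leaned on few libraries. The pairs on the positive side were those of Per1 with Arntl (0.245) and Clock (0.015) and of Cry1 with Clock (0.168). Among the 28 pairs within the negative arm and Dbp, 16 were positive and 12 negative, from -0.443 to 0.657. Dbp varied with Nr1d2 (0.649), Per2 (0.646) and Per3 (0.589) and little with Per1 (-0.139). For the first of these pairs, Nr1d2, rho was 0.594, and it was 0.524 for Per2 and 0.329 for Per3. Without the 2 libraries furthest from the median of Nr1d2, Per2 or Per3 in turn, r fell to 0.411, 0.368 and 0.317.

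**Figure D4:**
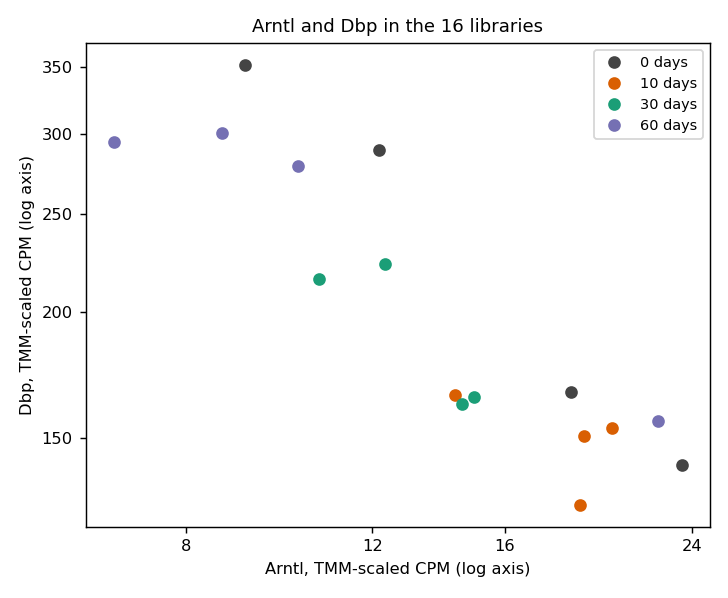
Dbp against Arntl in the 16 libraries (TMM-scaled CPM, both axes logarithmic), coloured by days after injury. Libraries of the 0-day and 60-day groups lie at both ends of the falling band, from an Arntl of 23.5 CPM with a Dbp of 141 CPM to an Arntl of 9.10 CPM with a Dbp of 352 CPM, and the 10-day libraries lie at its lower right.

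Among 8223 named genes with a mean of at least 5 CPM, the genes whose deviations were most unlike those of Arntl over the 16 libraries were Ralb (r -0.952), Mylip (-0.925), Dbp (-0.924), Wdsub1 (-0.910) and Hdhd3 (-0.899). The genes most like it were Cldnd1 (0.892), Sphk2 (0.877), Rnf4 (0.876), Cebpg (0.868) and Ndel1 (0.866). For 4 genes r was at or below -0.9 and for 0 at or above 0.9, beside a median of 0.068 over all. For Dbp the lowest was Arntl itself, then Bcl2l1 (-0.913), Tmem106b (-0.875), Sphk2 (-0.866) and Ddx52 (-0.845), and the highest were Wdsub1 (0.918), Ralb (0.899), Hist3h2a (0.873), Arhgef39 (0.872) and Hdhd2 (0.870). Computed on log2 CPM itself, with the differences between groups left in, 1 of the 10 genes named for Arntl (Dbp) and 3 of the 10 named for Dbp remained among the 10, and Clock was among the 5 most like Arntl (0.820).

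Further genes of the clock were taken as lists. Of 9 further repressors and outputs, 7 were in the table and tested, and of these 0 were higher and 5, 7 and 5 lower at 10, 30 and 60 days against 0 days, with a median log2 fold change of -1.19, -1.33 and -0.85. Of all genes 29.4%, 30.9% and 29.1% were lower at these times and 33.3%, 33.7% and 29.9% higher, which is the background for each list below. For this and each list below, the medians over all genes were 0.06, 0.05 and 0.04 with TMM scaling and 0.72, 0.54 and 0.45 with library totals. With library totals 2, 0 and 0 were higher and 4, 6 and 5 lower (medians -0.53, -0.83 and -0.45), and of all genes 80.2%, 75.1% and 69.9% were called. Nfil3, a repressor that competes with DBP for D-boxes, had the largest change at day 10, from 45.9 ± 11.7 CPM (SD, n = 4) to 11.6 ± 4.01 CPM, or a log2 fold change of -1.98 ± 0.29 (adjusted p 2.17e-05). Ciart (RGD1566380), whose promoter is shown above, measured 7.08, 15.0, 20.2 and 19.9 CPM at day 0 and 6.06, 6.21, 6.43 and 4.67 CPM at day 10. At 30 days it measured 3.08, 3.04, 5.72 and 6.997 CPM and at day 60 9.91, 17.7, 8.77 and 11.4 CPM. Like Dbp at day 0, it was lowest in replicate 1, and its 10-day and 30-day libraries all lay below the 0-day range. Its log2 fold change was -1.42 ± 0.32 (adjusted p 0.00131), -1.74 ± 0.33 (0.000291) and -0.39 ± 0.32 (0.310), the last turning to 0.03 with library totals.

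Usp2, a clock-controlled deubiquitinase, was lower at all 3 times, with log2 fold changes of -1.36 ± 0.17, -1.62 ± 0.17 and -0.96 ± 0.17, and so was Nampt, the enzyme that limits the NAD salvage pathway, with -1.19 ± 0.13, -1.28 ± 0.13 and -0.85 ± 0.13. Bhlhe40 (DEC1), a repressor that binds E-boxes, was lower at day 30 (-1.33 ± 0.17, adjusted p 6.62e-06) and 60 days (-1.44 ± 0.17, 4.44e-06). Its call at day 10 (-0.44 ± 0.17, adjusted p 0.0342) turned to 0.22 with library totals and was lost with the suffix block (0.0524) and without replicate 2 (-0.37) or 3 (-0.39) at day 0 or replicate 3 (-0.46) or 4 (-0.30) at day 10. Tef, a D-box activator related to Dbp that was chosen after its values were seen, had -0.03 ± 0.12 (adjusted p 0.844) at day 10, where Dbp was lower, and -0.91 ± 0.12 (5.78e-06) at day 30 and -0.82 ± 0.12 (2.27e-05) at day 60, where Dbp was not called. With library totals Tef was higher at day 10, at 0.63. Npas2, which can replace Clock as the partner of BMAL1, was the only gene tested of 5 partners and activators. It was not called at day 10 (-0.63 ± 0.32, adjusted p 0.0980; 0.03 with library totals; -0.80 and called without replicate 4 at day 0) or 30 days (0.16 ± 0.31, 0.666) and was higher at day 60 (1.06 ± 0.31, 0.00828), where Clock was lower with TMM scaling. Its CPM was 2.30 to 5.83 at day 0 and 6.55 to 9.98 at day 60.

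The kinases and ubiquitin ligases that set the stability of PER and CRY numbered 10 tested genes of 11. Of these 1 was higher at each time, and 3, 7 and 8 were lower at 10, 30 and 60 days, with medians of 0.05, -0.46 and -0.50. The 4, 8 and 9 called of 10 stand beside 62.7%, 64.6% and 59% of all genes. With library totals 8, 3 and 2 were higher and 1, 4 and 4 lower, with medians of 0.71, 0.03 and -0.10. The medians over all genes were then 0.72, 0.54 and 0.45. The counts by direction thus depended on the scaling. The median of the list was near that of all genes at 10 days and below it at 30 and 60 days. That this held with both scalings was given in advance, since a change of scaling moves all genes nearly alike. The gene that was higher was Prkaa1, a catalytic subunit of the energy sensor AMPK that marks CRY1 for breakdown, with 0.96 ± 0.088 (adjusted p 9.63e-08), 0.38 ± 0.088 and 0.41 ± 0.089. Prkaa2, its counterpart that predominates in muscle, was lower, with -1.50 ± 0.30 (0.000479), -1.96 ± 0.31 and -1.70 ± 0.31. Csnk1e, a casein kinase that phosphorylates PER, had 0.22 ± 0.15 (adjusted p 0.209) at day 10 and was lower at day 30 (-1.55 ± 0.16, 3.98e-07) and 60 days (-1.02 ± 0.16, 4.39e-05). With library totals its value at day 10 was 0.88, called higher.

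Of 9 outputs of the clock in muscle 7 were tested. At 10, 30 and 60 days 1, 1 and 0 were higher and 4, 5 and 3 lower, with medians of -0.73, -0.88 and -0.50. The 5, 6 and 3 called of 7 stand beside 62.7%, 64.6% and 59% of all genes. With library totals 3, 2 and 0 were higher and 2, 4 and 2 lower, with medians of -0.08, -0.40 and -0.12. Hk2, a hexokinase that starts glucose use, had 0.24 ± 0.17 (adjusted p 0.226) at day 10, where library totals called it higher (0.90), and was lower at day 30 (-1.61 ± 0.17, 1.10e-06) and day 60 (-1.68 ± 0.18, 1.20e-06). Slc2a4, the insulin-responsive glucose transporter GLUT4, had a log2 fold change of -1.83 ± 0.16 (adjusted p 5.60e-08) at day 10, -0.88 ± 0.16 (0.000137) at day 30 and -0.46 ± 0.16 (0.0175) at day 60, the last lost with library totals (-0.06), with upper-quartile factors (-0.32) and without replicate 4 at day 60 (-0.40). Pdk4, which holds back pyruvate oxidation, had -1.91 ± 0.43 (adjusted p 0.00119) at day 10, -1.38 ± 0.43 (0.0102) at day 30, lost with library totals (-0.90), and -0.72 ± 0.42 (0.154) at day 60. Myod1, a myogenic factor and direct target of BMAL1 and CLOCK, was higher, by 1.74 ± 0.29 (7.00e-05) at day 10 and 1.58 ± 0.28 (0.000182) at day 30, and had 0.16 ± 0.28 (0.645) at day 60. Myod1 is also known to respond to denervation, and whether the clock had a part in its level was not tested.

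All 8 glucocorticoid-responsive genes were tested, since glucocorticoids reset peripheral clocks and induce Per1. Of these 1, 2 and 3 were higher and 6, 5 and 3 lower at 10, 30 and 60 days, with medians of -0.90, -0.83 and -0.19. The 7, 7 and 6 called of 8 stand beside 62.7%, 64.6% and 59% of all genes. With library totals 2, 2 and 3 were higher and 2, 3 and 1 lower, with medians of -0.24, -0.33 and 0.22. Cebpd had the largest change at day 10, with -1.96 ± 0.26 (adjusted p 7.96e-06), and -1.62 ± 0.26 (5.29e-05) at day 30. Zbtb16 had -1.22 ± 0.32 (adjusted p 0.00386) at day 10 and -2.27 ± 0.34 (3.47e-05) at day 30, and Klf9 had -0.90 ± 0.12 (6.99e-06) and -1.53 ± 0.12 (3.01e-08), and these 2 genes had their lowest mean at day 30, as Per1 did. Cebpd, Fkbp5, Tsc22d3 and Ddit4 had theirs at day 10 and Sgk1 and Errfi1 at day 0. Sgk1 was higher, by 1.65 ± 0.17 (4.68e-07) and 1.24 ± 0.17 (1.13e-05). With library totals the call of Zbtb16 at day 10 was lost (-0.57). From 30 to 60 days, when Per1 was higher, 6 of the 8 were higher and 1 lower, with TMM scaling as with library totals, beside 10.3% and 12.4% of all genes with TMM scaling. Of 10 immediate early genes, 1 was higher at each time and 5, 2 and 1 were lower, with medians of -0.81, -0.40 and -0.52, and with library totals 3, 3 and 1 were higher and 2, 1 and 0 lower (medians -0.14, 0.10 and -0.12). The 6, 3 and 2 called of 10 with TMM scaling stand beside 62.7%, 64.6% and 59% of all genes. Nr4a1 ranged from 202 to 689.5 CPM at day 0 and from 16.6 to 57.8 CPM at day 10 (log2 fold change -3.70 ± 0.58, adjusted p 5.68e-05), Dusp1 had -2.66 ± 0.37 (1.40e-05), and Junb was higher by 1.25 ± 0.24 (0.000294). The part of hormone level or handling in the level of Per1 was not tested.

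**Figure D5:**
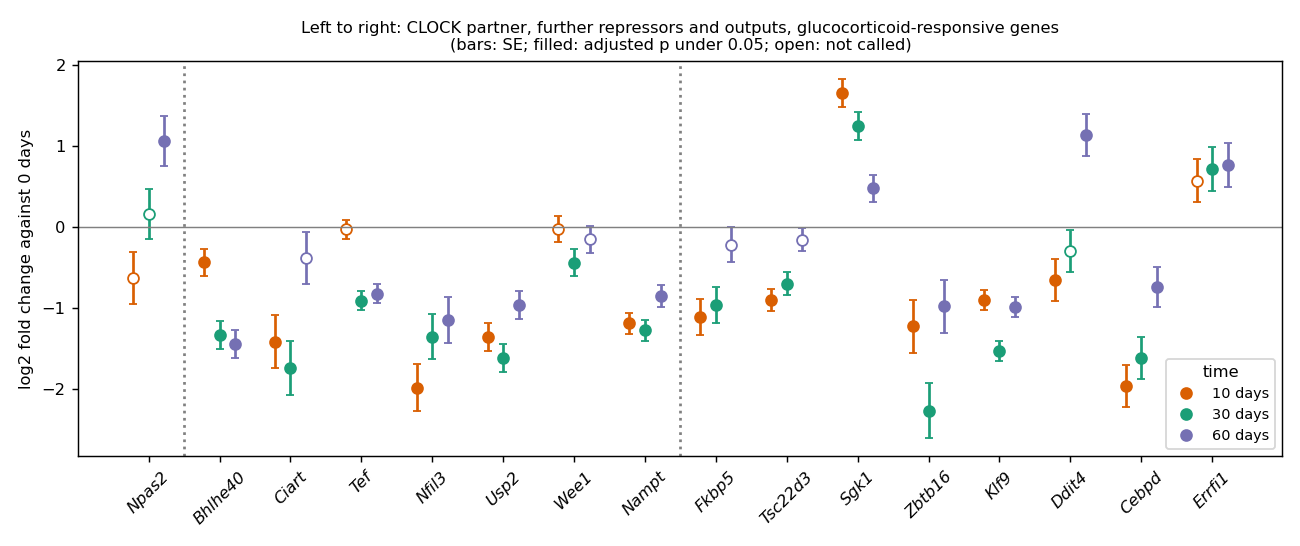
Log2 fold change against 0 days (vertical axis; bars are the SE) of Npas2, 7 further repressors and outputs and 8 glucocorticoid-responsive genes at 10, 30 and 60 days; filled points have an adjusted p under 0.05. The repressors and outputs lie below 0 or near it at all times, Sgk1 is above 0 at all times, and Zbtb16 at day 30 is lowest (-2.27).

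The cell types of the muscle changed with injury in the same libraries. The summed CPM of 7 muscle fibre markers was 226510 to 245680 at day 0, 66740 to 71437 at day 10, 95523 to 136800 at day 30 and 115260 to 135980 at day 60, with 6, 5 and 5 of the 7 lower and 1 higher at each time. It was lowest at day 10, as was, with TMM scaling, the sum of the 10 clock genes, which was 1004.4 to 1264.9, 657.34 to 737.4, 737.23 to 861.99 and 908.81 to 1166.8 CPM. Nr1d1, Nr1d2 and Dbp make up most of that sum, and of the single genes these 3 and Per2 had their lowest mean at day 10, Per1 and Cry2 at day 30, Arntl, Clock and Cry1 at day 60 and Per3 at day 0. Of 5 macrophage markers 4, 5 and 5 were higher and 0 lower, with sums of 26.5 to 38.4 CPM at day 0 and 82.9 to 117 CPM at day 10. Of 5 fibroblast markers 4, 5 and 5 were higher. Of 4 adipocyte markers 0, 0 and 4 were higher, with sums of 7.42 to 41.5 CPM at day 0 and 49.6 to 118.6 CPM at day 60, and of 4 Schwann cell markers 0, 2 and 4 were higher and 1, 0 and 0 lower. Of 4 endothelial markers 4, 2 and 1 were lower and 0, 0 and 1 higher, and of 3 satellite cell markers 1 was higher and 1 lower at each time. With library totals the endothelial markers had 1, 0 and 0 lower and 0, 1 and 3 higher, the Schwann cell markers 2, 3 and 4 higher and 1, 0 and 0 lower, and all 5 macrophage and all 5 fibroblast markers were higher at each time. The part of these cells in the levels of the clock genes was not tested.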

How the data were processed

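Messenger RNA of supraspinatus muscle was sequenced in 16 libraries, and groups were taken from the time in each label. The deposited table from Cuffdiff lists fragments per gene in each library, and the values the authors gave are expected counts with no scaling for depth or length. Per the submitters' processing notes, bcl2fastq 1.8.4, FastQC, TopHat2 2.0.9, Bowtie2 2.1.0.0, Cufflinks and Cuffdiff 2.1.1 were used with build rn5. The annotation and the strand setting are not given in the sources used here. All 16 columns were used, and 233 of 17147 genes had a fractional value.

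Counts were rounded and filtered (filterByExpr by group), and scaled by TMM. The model was edgeR's robust quasi-likelihood fit of all 16 libraries with no covariate, with p-values adjusted by Benjamini-Hochberg over all 11658 genes tested. Log2 CPM used a prior count of 2. The common biological coefficient of variation was 0.15. Counting error is small at these depths, and intervals for it would not cover the spread between animals.

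The members, the 13 lists (84 genes, 77 in the table under the listed symbol, or Emr1 for Adgre1 and RGD1566380 for Ciart) and the tests were chosen with earlier results of these data known. All members were named in every comparison. Within a list, values were given for at most the 4 called genes with the largest change, and Tef was added after its values were seen. Genes like Arntl and Dbp were the 5 highest and 5 lowest correlations. The ratios of Clock to Nr1d1, Dbp to Nr1d1 and Per3 to Per1 were added after seeing the data. RefSeq tables of GRCr8 gave promoters and names only, with Bmal1 matched to Arntl.

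On simulated data for 10 against 0 days, 147 of 198 genes changed 2-fold were called, with 3 unchanged ones, of 11537 genes. A simulated 60 against 30 days with no change gave 0 calls. Only a small share of genes was changed, up and down in equal number, from means shared by all groups. In the data most genes changed and the scaling factors differed between groups, so these rates cannot be carried over to them. The column suffix was tried as a replicate block. Deviations of libraries with the same suffix had correlations from -0.237 to 0.216 across groups, with a mean of 0.0013. This mean gave no sign of a pairing by suffix, but it cannot show whether some libraries share a rat or a batch. The alternatives were RLE and upper-quartile factors, library totals, DESeq2, limma-voom, no filter, a mean of at least 1 CPM, the suffix block, the letter ending each title as a covariate, an adjusted p under 0.01, the compared groups alone and leaving out each library. The fits used edgeR 4.0.16, DESeq2 1.42.0 and limma 3.58.1 under R 4.3.3, and figures used matplotlib 3.10.9 under python 3.11.15.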

Additional observations from a re-analysis of the deposited data

Results flagged for a closer look

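In 3 of 60 sets of 4 libraries 1 library stood far from the others, by the gap to its neighbour over the range of the group. Chance alone gives this in about 1 of 20 sets. Dbp at 60 days had a value of 0.847, with replicate 1 at 156 CPM below 279, 295 and 301 CPM. The ratio of Arntl to Nr1d1 at 60 days had 0.864, through the same library at -2.78. The ratio of Clock to Nr1d1 at 0 days had 0.853, through replicate 1 at -1.63.

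In 15 cases the fold change of a clock gene against 0 days differed between times by the test of the difference itself, which is the direct comparison of the injured groups. Of the 10 clock genes, 4 were called for 30 against 10 days, 4 for 60 against 30 days and 7 for 60 against 10 days. The shares of all genes called were 47.3%, 22.6% and 61.1%. Between 30 and 10 days the differences on the log2 scale were 0.71 for Nr1d1, 0.42 for Per3, 0.26 for Nr1d2 and -0.39 for Cry2. Between 60 and 30 days they were 1.48 for Per1, 0.505 for Nr1d1, 0.365 for Cry2 and 0.34 for Nr1d2. Between 60 and 10 days they were 1.21 for Nr1d1, 0.96 for Per1, 0.79 for Dbp, 0.60 for Nr1d2, 0.44 for Per2, 0.36 for Per3 and -0.36 for Clock.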

How the results depend on the processing

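Scaling was the choice with the most effect: of 70 results for single clock genes, library totals turned 15 and moved 24 others over the threshold, RLE factors turned 2 and moved 0, and upper-quartile factors turned 5 and moved 6. Values turned by library totals against 0 days were 0.47 (10 days) and 0.46 (30) for Per2, 0.41 and 0.080 for Cry1, 0.62, 0.063 and 0.34 (60) for Cry2, 0.23 (30) for Arntl, 0.34 (30) and 0.084 (60) for Clock, 0.18 (30) for Dbp, and at 60 days 0.097 for Per1, 0.047 for Nr1d1, 0.25 for Nr1d2, 0.030 for Ciart, 0.19 for Fkbp5 and 0.30 for Dusp1. At 10 days they were 0.029 for Npas2, 0.22 for Bhlhe40, 0.63 for Tef, 0.14 for Fbxw11 and 0.31 for Gsk3a, and from 10 to 30 days -0.005 for Per2. Upper-quartile factors turned Per2 (30 days) to 0.082, Cry2 to 0.015 (10) and 0.075 (60), Tef (10) to 0.022 and Dusp1 (60) to 0.039. Values near 0 turned for Cry1 from 30 to 60 days (RLE and DESeq2 0.011, upper-quartile 0.008, mean of 1 CPM 0.002), for Cry2 from 10 to 60 days (RLE and DESeq2 0.003, upper-quartile 0.060, mean of 1 CPM 0.004) and at 10 days (title letter 0.011). The cause was not tested.

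At an adjusted p under 0.01 the clock genes called were 3 (10 against 0 days), 2 (60 against 0), 1 (30 against 10), 2 (60 against 30), 3 (60 against 10) and 5 in the joint test, beside 51.6%, 45.2%, 33.6%, 10.7%, 48.8% and 74.3% of all genes. The compared groups alone gave 2 for 60 against 30 days. Leaving out each library gave 3 to 5 (10 against 0; 3 without replicate 3 or 4 at 0 days or 3 at 10 days), 6 to 6 (30 against 0), 2 to 4 (60 against 0; 2 without replicate 2 at 0 days or 4 at 60 days), 2 to 5 (30 against 10), 2 to 4 (60 against 30), 4 to 8 (60 against 10) and 6 to 9 (joint test). It turned values with ranges of -0.63 to 0.084 (Arntl, 60 against 30 days), -0.027 to 0.10 (Clock, 10 against 0), -0.29 to 0.003 and -0.13 to 0.16 (Per2, 10 and 30 against 0), -0.16 to 0.042 (Per3, 60 against 30), -0.061 to 0.086 (Cry1, 60 against 30), -0.11 to 0.098, -0.14 to 0.086 and -0.10 to 0.038 (Cry2, 10 and 60 against 0, 60 against 10), -0.045 to 0.39 (Dbp, 60 against 0), -0.10 to 0.15 (Tef, 10 against 0), -0.095 to 0.48 (Npas2, 30 against 0) and, at 60 against 0, -0.32 to 0.072 (Dusp1), -0.35 to 0.006 (Fkbp5) and -0.18 to 0.31 (Myod1). Of the genes named as like and unlike, log2 CPM itself kept 1 of 10 for Arntl and 3 of 10 for Dbp. The suffix as a replicate block gave 4, 6, 4, 4, 4 and 8 calls in the 6 comparisons and 8 in the joint test, with Cry1 lost at 10 days (adjusted p 0.0503) and Arntl gained from 10 to 60 days (0.0337). It changed no other call of a clock gene.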
